A study of Mus musculus with 12 samples.

Results

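The genes described here are 36 genes of the extracellular matrix, of the metalloproteinases that cut it and of the protease inhibitors that restrain them, out of 18194 genes read from the arrays. They were chosen by name. For a gene with several probesets, the brightest on average was taken, leaving the double-knockout 0 h array out of that average. A probeset carrying the symbol alone was found for 33 of the 36, and Mmp27, Serpina3g and Spp1 were not analysed here. Values are log2 RMA values per probeset, and the median of all values over the other 11 arrays, 3.83, served as the floor under which a reading was taken as not separated from background.

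The arrays compare mouse peritoneal macrophages recruited with thioglycollate, in 3 genotypes with 4 arrays each. IRAK1/IRAK2 KO macrophages lack both kinases and are called the double knockout. IRAK2 KO macrophages lack IRAK2, and the wild type carries neither deletion. Each genotype was measured unstimulated (0 h) and after 2, 4 and 8 h of MALP-2 at 100 ng/ml, a lipopeptide sensed by TLR2 with TLR6, with 1 array per genotype and time. The sources used here do not give strain, age, sex, mice per array or the design of the deletions.

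The double-knockout 0 h array stood apart, with correlations of 0.764 to 0.804 to the others, against 0.954 or more among the other 11. It enters no test below, and its readings, 3.36 to 13.05 over the 33 members, are the open points in the plots. On the stimulated arrays Irak2 read 4.61 to 5.19 in the double knockout, 4.65 to 5.51 in the IRAK2 knockout and 5.77 to 6.69 in wild type. The Irak1 probeset read 8.11 to 8.31 in the double knockout, 8.31 to 8.52 in the IRAK2 knockout and 8.46 to 8.48 in wild type. It is not known here whether either probeset lies inside its deletion, so these readings check the labels only in part. The stimulated double-knockout arrays also had weaker 5′ signal, with actin 5′ minus 3′ values of -4.68 to -3.87, against -3.72 to -3.26 in the stimulated IRAK2 knockout and -3.58 to -3.24 in stimulated wild type. For GAPDH these values lay further apart, at -5.9 to -4.36, -3.69 to -3.42 and -3.84 to -3.64 in the same order. Of 10 macrophage markers, 9 or 10 were at or above the floor on every stimulated array. Their summed level was 14.55 to 14.63 log2 in the double knockout, 14.66 to 14.73 in the IRAK2 knockout and 14.63 to 14.69 in wild type. Single markers differed in both directions. In the same order Mrc1 read 9.08 to 9.26, 7.54 to 8.45 and 6.87 to 7.99. Cd14 read 8.10 to 10.15, 10.23 to 11.18 and 10.70 to 11.30, and Adgre1 10.29 to 10.42, 10.58 to 11.32 and 10.58 to 11.50. In such bulk samples fewer cells of a type and less RNA per cell cannot be told apart.

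Matrix metalloproteinases (MMPs) are zinc enzymes made as inactive precursors, and together they cut most matrix proteins. TIMPs, the tissue inhibitors of metalloproteinases, bind the active enzymes. ADAMs are membrane-anchored relatives that release cytokines and receptors from the cell surface, and ADAMTS enzymes are secreted relatives that cut proteoglycans. Serpins and cystatins block serine and cysteine proteases. Macrophages are known to use these enzymes to move through tissue, to release TNF and to remodel matrix after inflammation.

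Several of the MMP genes are neighbours on mouse chromosome 9, where the RefSeq gene table of GRCm38.p6 gives the order Mmp13, Mmp12, Mmp1b, Mmp3, Mmp1a, Mmp10, Mmp8 and Mmp27. The promoters of the 5 members read from this cluster are shown because 4 of them hold the same short motif while their transcripts behaved differently. RefSeq promoter windows of 300 bases (250 before to 50 after the annotated start) were found for 23 of the 36 members. Shown are the 100 bases before and the first 20 bases from the annotated start, on the plus strand of GRCm38.p6, at chr9:7272414-7272533 for Mmp13, chr9:7347274-7347393 for the second of the Mmp12 starts, chr9:7445722-7445841 for Mmp3, chr9:7502242-7502361 for Mmp10 and chr9:7558329-7558448 for Mmp8. Capitals mark the AP-1 motif TGANTCA and the TATA box motif TATAAA, each searched on both strands.
Mmp13: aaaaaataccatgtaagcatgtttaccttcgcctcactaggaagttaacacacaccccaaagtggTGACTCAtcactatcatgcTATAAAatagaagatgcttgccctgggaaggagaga
Mmp12: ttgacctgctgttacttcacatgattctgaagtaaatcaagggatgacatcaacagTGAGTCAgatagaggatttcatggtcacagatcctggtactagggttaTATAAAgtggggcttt
Mmp3: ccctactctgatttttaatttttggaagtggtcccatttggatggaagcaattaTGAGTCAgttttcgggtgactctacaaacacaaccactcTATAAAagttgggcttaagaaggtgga
Mmp10: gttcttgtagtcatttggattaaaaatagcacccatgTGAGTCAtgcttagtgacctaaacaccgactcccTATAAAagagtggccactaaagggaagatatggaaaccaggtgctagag
Mmp8: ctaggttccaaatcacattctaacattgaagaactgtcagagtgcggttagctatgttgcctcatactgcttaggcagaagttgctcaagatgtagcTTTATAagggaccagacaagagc

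TGANTCA started 35 bases before the annotated start in Mmp13, 44 in Mmp12 (from the second start, the window of the other Mmp12 start holding no match), 46 in Mmp3 and 63 in Mmp10, and the Mmp8 window held no match. Over all 32851 promoter windows of the table, 7.81% held TGANTCA and 13.6% held TATAAA. Among the 23 members the counts were 5 with TGANTCA (the 4 above and Adam19) and 8 with TATAAA (Spp1, not analysed here, included). A member was counted if any of its windows held a match, whereas the percentages are of single windows. A match describes the letters and not a bound site.

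The 5 neighbours had different transcript profiles. Mmp13, a collagenase, read 5.02, 8.50, 8.02 and 7.05 at 0, 2, 4 and 8 h in wild type. It was thus highest at 2 h and still above its 0 h reading at 8 h. Mmp12, the macrophage elastase, read 11.79, 11.63, 11.51 and 11.11 in wild type, lower by a little at each later time. The stromelysin genes Mmp3 and Mmp10 stayed within 3.37 to 4.29 and 3.44 to 4.11 over the 11 arrays, near the floor in every genotype. Mmp8, the neutrophil collagenase, read 6.17, 5.73, 5.30 and 4.98 in wild type, lower at each later time.

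How MALP-2 changed these genes was tested over wild type and the IRAK2 knockout, the genotypes with a usable 0 h array. limma was fitted to their 8 arrays with genotype and time as factors, and a gene was called at a Benjamini-Hochberg adjusted p under 0.05 over 10801 genes. Its p-value weighs a response against its constancy over the 2 genotypes, not against the spread between mice. Of the 36 members, 31 had a mean at or above the floor and were tested. Adamts1 (3.38 to 4.01 over the 11 arrays) and Plat, tissue plasminogen activator (3.40 to 4.15), were read but lay under the floor on average.

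After MALP-2 both genotypes had more transcript for the collagen-cutting enzymes MMP13 and MMP14, for TIMP1 and for the collagen cross-linking enzyme LOX. By 8 h transcripts for TIMP2, TIMP3, urokinase, ADAM8 and ADAM10 were scarcer, of which only those for TIMP2 and urokinase were called lower already at 2 h. At 2 h 9 members were called higher and 5 lower (16.2% and 29.1% of all tested genes, 45.3% in all). The counts were 8 higher and 9 lower at 4 h (17.3% and 23.2%, 40.4% in all) and 9 higher and 11 lower at 8 h (14.7% and 18.1%, 32.8% in all). The median difference of the 31 members was -0.11, -0.03 and -0.06 log2 at the 3 times, against -0.12, -0.04 and -0.03 over all tested genes. The members thus moved in both directions around a median close to that of all genes. Called higher at all 3 times were Adam17, Adamts4, Fn1, Lox, Mmp13, Mmp14, Mmp9 and Timp1, and called lower at all 3 were Mmp19, Plau, Serpinb6a, Sparc and Timp2.

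**Figure D1:**
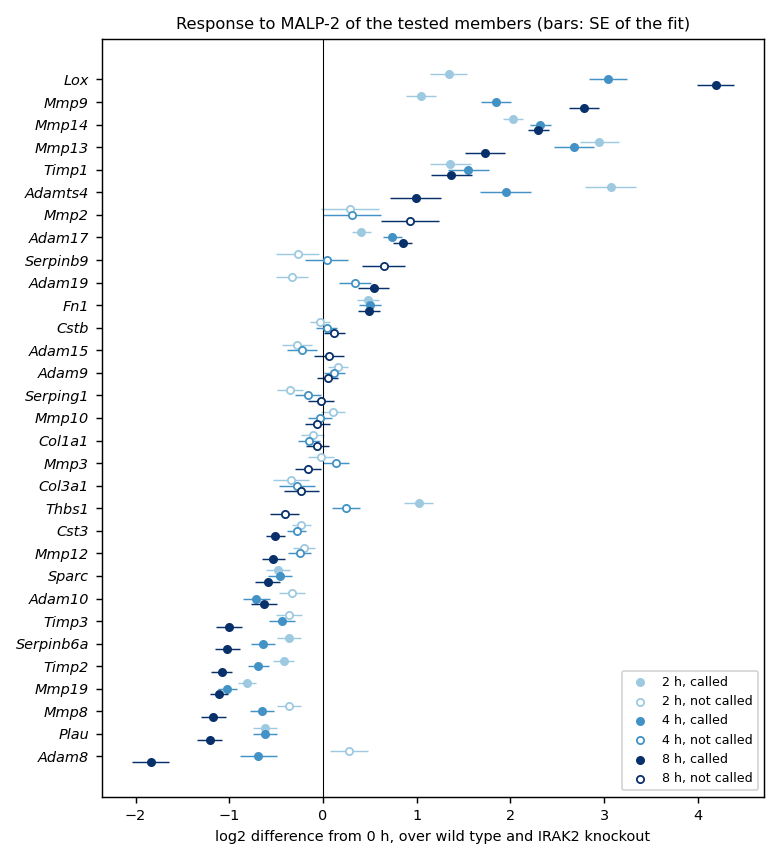
Log2 difference from 0 h at 2, 4 and 8 h of MALP-2 for the 31 tested members, as the limma estimate over wild type and the IRAK2 knockout with its SE. Filled points passed an adjusted p under 0.05; Lox reached 4.19 at 8 h, Adamts4 was highest at 2 h (3.07), and Adam8 fell by 1.84 at 8 h.

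The induced enzymes had different time courses. Mmp13 read 5.53, 7.95, 7.89 and 6.96 over 0, 2, 4 and 8 h in the IRAK2 knockout, like wild type highest at 2 h. From 0 h it rose there by 2.42, 2.37 and 1.44 log2, less than the 3.48, 3.0 and 2.03 of wild type. Over both genotypes it was higher by 2.95 log2 at 2 h (SE 0.21, limma adjusted p 3.48e-05) and by 1.73 at 8 h (SE 0.21, adjusted p 6.99e-04). Adamts4, an aggrecan-cutting enzyme, read 3.87, 7.15, 5.47 and 4.47 in the IRAK2 knockout, against 3.98, 6.83, 6.29 and 5.36 in wild type. It rose by 3.07 log2 at 2 h (SE 0.27, adjusted p 9.1e-05), measured from 0 h readings that lay near the floor. Mmp9, the gelatinase B of neutrophils and macrophages, instead rose steadily, with 5.27, 6.58, 7.23 and 7.99 in the IRAK2 knockout, against 5.59, 6.37, 7.32 and 8.45 in wild type. At 8 h it was higher by 2.79 log2 (SE 0.16, adjusted p 1.87e-05). Mmp14, a membrane-anchored MMP that cuts collagen and activates MMP2, read 7.0, 9.05, 9.32 and 9.18 in the IRAK2 knockout, against 6.83, 8.85, 9.15 and 9.25 in wild type. It had nearly reached its plateau by 2 h, when it was higher by 2.03 log2 (SE 0.11, adjusted p 1.31e-05).

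Among the structural and inhibitor genes, Lox, whose product cross-links collagen and elastin, had the largest estimate of the 31 at 8 h, 4.19 log2 (SE 0.20, adjusted p 6.72e-06). It read 6.07, 7.36, 8.87 and 9.82 in the IRAK2 knockout, against 6.45, 7.85, 9.74 and 11.08 in wild type, rising at each time. Timp1, which inhibits most MMPs, read 7.36, 8.28, 8.61 and 8.23 in the IRAK2 knockout, against 7.07, 8.86, 8.91 and 8.93 in wild type, and was higher by 1.36 log2 at 2 h (SE 0.22, adjusted p 0.0015). Adam17, the TNF-releasing sheddase, read 10.57, 11.02, 11.33 and 11.44 in the IRAK2 knockout, against 10.68, 11.05, 11.39 and 11.51 in wild type, and rose by 0.85 log2 at 8 h (SE 0.10, adjusted p 5.47e-04). Fn1, fibronectin, read 11.13, 11.58, 11.47 and 11.54 in the IRAK2 knockout, against 11.16, 11.67, 11.82 and 11.72 in wild type. On the probeset read it rose by 0.48 to 0.50 log2 at the 3 times, while 1437218_at differed from 0 h by 2.17, 0.35 and -0.18. Thbs1, thrombospondin 1, was higher at 2 h alone among the calls, by 1.02 log2 (SE 0.15, adjusted p 0.0011), with 8.69, 9.80, 9.03 and 8.09 in the IRAK2 knockout, against 8.48, 9.41, 8.64 and 8.26 in wild type. Mmp2, gelatinase A, read 4.97, 5.13, 5.03 and 5.13 in the IRAK2 knockout, against 5.23, 5.66, 5.79 and 6.93 in wild type. Its difference of 0.93 log2 at 8 h (SE 0.31, adjusted p 0.0515) did not pass over both genotypes, and the high reading was that of wild type.

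**Figure D2:**
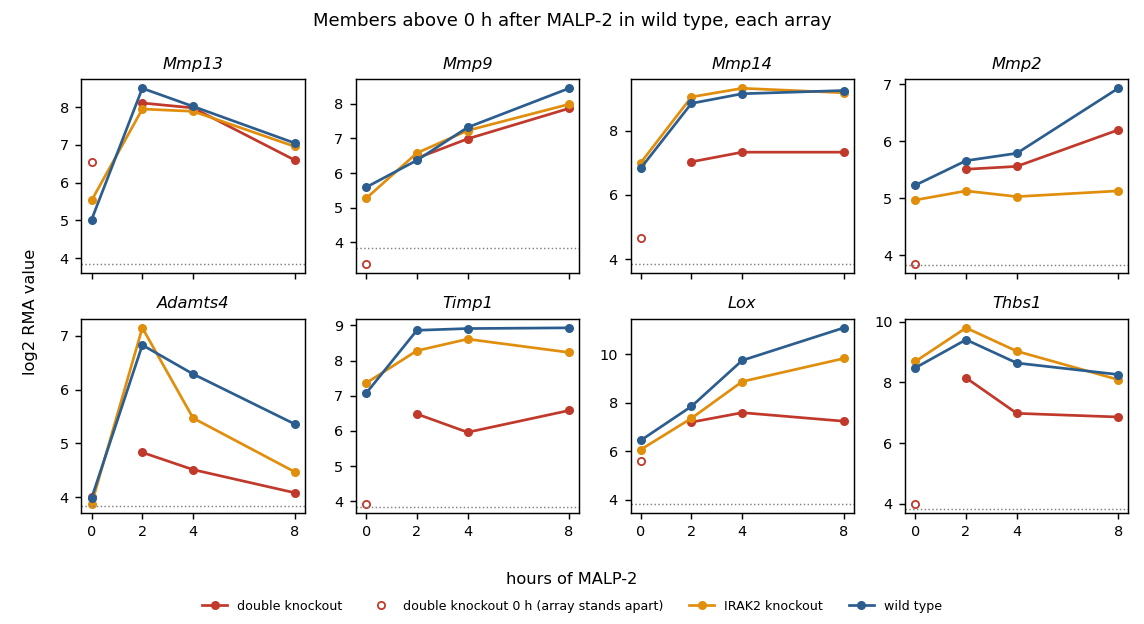
Log2 RMA values of 8 members on every array, against hours of MALP-2, for the double knockout, the IRAK2 knockout and wild type; the dotted line is the floor of 3.83 and the open point is the double-knockout 0 h array. Mmp13 and Mmp9 run close together in the 3 genotypes, while Mmp14, Timp1 and Adamts4 lie lower in the double knockout at all 3 times and Lox parts from wild type with time.

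Among the genes that fell, 5 were called lower at 2 h, 9 at 4 h and 11 at 8 h. Adam8, a leukocyte sheddase, read 9.86, 10.01, 9.03 and 8.31 in the IRAK2 knockout, against 9.56, 9.96, 9.02 and 7.43 in wild type, and differed by -1.84 log2 at 8 h (SE 0.20, adjusted p 3.97e-04) but was not called at 2 h (0.28, adjusted p 0.30). Plau, urokinase, which activates plasminogen, differed by -1.21 log2 at 8 h (SE 0.13, adjusted p 3.78e-04), and Mmp8 by -1.17 (SE 0.13, adjusted p 4.36e-04). Plau read 6.27, 5.56, 5.55 and 5.17 in the IRAK2 knockout, against 6.35, 5.81, 5.83 and 5.02 in wild type. Mmp19, an MMP of basement membrane proteins, read 9.04, 8.26, 8.06 and 7.98 in the IRAK2 knockout, against 8.81, 7.99, 7.77 and 7.66 in wild type. It was already at -0.81 log2 from 0 h at 2 h and stood at -1.11 at 8 h, the lowest reading in both genotypes. Both other TIMP genes moved against Timp1. Timp2, which also takes part in MMP2 activation, read 11.70, 11.29, 11.12 and 10.75 in the IRAK2 knockout, against 11.64, 11.20, 10.84 and 10.42 in wild type. Timp2 stood at -0.42, -0.69 and -1.08 log2, called at each time, and Timp3, a TIMP that stays bound to the matrix, at -0.36, -0.44 and -1.0, called at 4 and 8 h.

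Serpinb6a, an intracellular serpin, read 9.12, 8.81, 8.69 and 8.23 in the IRAK2 knockout, against 8.93, 8.52, 8.07 and 7.79 in wild type. Sparc, a collagen-binding matrix protein, read 8.26, 7.96, 7.82 and 7.64 in the IRAK2 knockout, against 8.35, 7.69, 7.86 and 7.79 in wild type. Both were below 0 h at every stimulated time in both genotypes. In the fit Serpinb6a stood at -1.02 at 8 h, Adam10, a sheddase of Notch and other receptors, at -0.63, Sparc at -0.59, Mmp12 at -0.53 and Cst3, cystatin C, at -0.51, all called. Adam19 was called higher at 8 h (0.54, SE 0.17, adjusted p 0.039). Not called at any time were the sheddases Adam9 and Adam15, and Col1a1, Col3a1, Cstb, Mmp2, Mmp3, Mmp10, Serpinb9 and Serping1, of which Serping1, the C1 inhibitor, read 3.6 to 4.20 over the 11 arrays.

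By size alone, in wild type 5, 6 and 7 members reached 2-fold or more over their 0 h value at 2, 4 and 8 h (5.41%, 5.34% and 5.06% of all measured genes) and 0, 1 and 7 were 2-fold or more under it (7.67%, 6.93% and 5.65%). In the IRAK2 knockout 6, 6 and 5 were above (4.65%, 4.26% and 3.21%) and 0, 0 and 4 below (5.38%, 5.0% and 2.95%), of 32, 31 and 31 measured members. Timp1 at 8 h was under 2-fold in the IRAK2 knockout (0.88 log2) and past it in wild type (1.86), and Adamts4 likewise (0.60 and 1.38). Serpinb9, a granzyme B inhibitor, was past it in the knockout (1.05) and not in wild type (0.25). These are differences of single arrays and carry no test.

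How stimulated levels differed between the genotypes was tested on the 9 stimulated arrays with limma, with genotype and time as additive factors and 10855 genes tested. The double-knockout 0 h array enters no test. A difference already present before MALP-2 and a changed response to it therefore cannot be told apart in the double knockout. Here the p-value sets a genotype difference against how much it varies between the 3 times. Stimulated double-knockout macrophages had much less transcript for TIMP1, LOX, MMP14 and ADAMTS4 than wild type, and more for the macrophage elastase MMP12. Mmp13 and Mmp9 were not called. Against wild type 4 members were called higher and 7 lower (23.7% and 17.3% of all tested genes), with a median of -0.12 log2 against 0.07 over all genes. Against the IRAK2 knockout 6 were called higher and 7 lower (22.1% and 16.7%), with medians of -0.04 and 0.06. The share of members called in either direction, 11 and 13 of 31, was near the 41.1% and 38.8% of all tested genes. Leaving out the 4 h arrays left 5 of the 13 calls against the IRAK2 knockout, Mmp14, Plau, Thbs1, Timp1 and Timp3. The 2 contrasts share the double-knockout arrays.

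**Figure D3:**
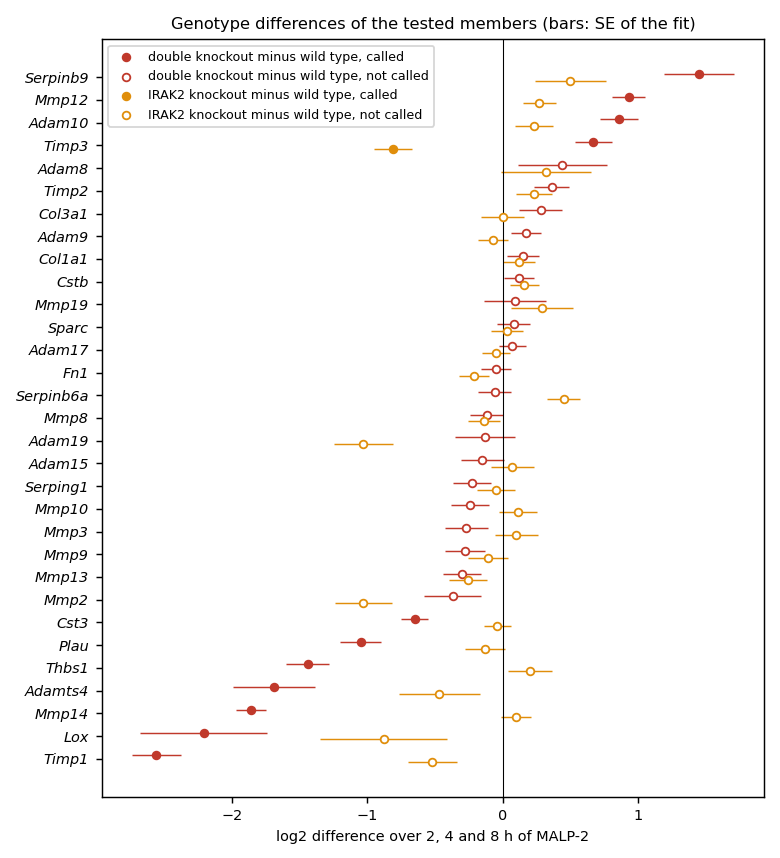
Log2 difference over 2, 4 and 8 h of MALP-2, double knockout minus wild type and IRAK2 knockout minus wild type, for the 31 tested members, with the SE of the limma fit. Filled points passed an adjusted p under 0.05: 11 members for the double knockout, with Timp1 at -2.56 and Serpinb9 at 1.45, and Timp3 (-0.81) for the IRAK2 knockout.

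Of the 8 members called higher at all 3 times after MALP-2, 4 were lower in the double knockout than in wild type and 4 were not called. Of all 893 genes called higher at all 3 times, 56.6% were lower in the double knockout and 4.93% higher, so the members' split is near that of induced genes in general. Timp1 read 6.48, 5.96 and 6.58 at 2, 4 and 8 h in the double knockout, under every reading of the other genotypes, unstimulated ones included. It differed by -2.56 log2 from wild type (SE 0.18, adjusted p 4.22e-05) and by -2.03 from the IRAK2 knockout (SE 0.18, adjusted p 1.37e-04). Mmp14 read 7.03, 7.33 and 7.33 in the double knockout, near the 0 h readings of the IRAK2 knockout (7.0) and wild type (6.83), and differed by -1.86 from wild type (SE 0.11, adjusted p 1.99e-05). Adamts4 read 4.83, 4.51 and 4.08, all under the stimulated readings of wild type, and differed by -1.69 (SE 0.30, adjusted p 0.0026). Lox read 7.20, 7.59 and 7.24, nearly equal at 2 and 8 h, and differed by -2.21 (SE 0.47, adjusted p 0.0060), or by -1.40 without the 8 h arrays. Against the IRAK2 knockout Lox differed by -1.34 (SE 0.47, adjusted p 0.051).

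The gap of Lox widened with time. Double knockout minus wild type was -0.65, -2.15 and -3.84 log2 at 2, 4 and 8 h, and limma, with a slope on log2 hours for each genotype, put the change at -1.59 for each doubling of time (SE 0.12, adjusted p 0.015). Lox was the 1 member called in that fit (of all tested genes 0.111% were called lower and 0.0276% higher, 0.138% in all). IRAK2 knockout minus wild type was -0.50, -0.87 and -1.26, a slope of -0.38 (SE 0.12, adjusted p 0.96). No member was called for a change with time in the IRAK2 knockout by limma (0.00921% of all genes), although 5 of 31 had an unadjusted p under 0.05, against 4.95% of all genes.

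The remaining 4 induced genes were not called. Mmp13 read 8.11, 7.98 and 6.6 in the double knockout and differed from wild type by -0.30 (SE 0.14, adjusted p 0.13). Mmp9 read 6.43, 6.99 and 7.87 and differed by -0.28 (SE 0.15, adjusted p 0.16). Adam17 read 11.21, 11.39 and 11.55, a difference of 0.07 (SE 0.10, adjusted p 0.63), and Fn1 11.68, 11.65 and 11.74, a difference of -0.05 (SE 0.11, adjusted p 0.76). Missing the threshold does not show equality, and the SEs give the resolution. Mmp9 and Mmp8 are also neutrophil granule genes. Of 9 neutrophil markers with a probeset, 3 to 5 were at or above the floor on the stimulated arrays. Their summed level was 9.41 to 9.66 log2 on the stimulated double-knockout arrays, 10.65 to 10.97 in the IRAK2 knockout and 10.82 to 11.22 in wild type. S100a8 made up most of it, at 9.09 to 9.41 in the double knockout, 10.49 to 10.84 in the IRAK2 knockout and 10.67 to 11.03 in wild type. Csf3r read 5.20 to 5.61 in the double knockout, 5.98 to 6.41 in the IRAK2 knockout and 6.59 to 7.37 in wild type. Camp read 3.87 to 4.43 in the double knockout, 4.49 to 5.03 in the IRAK2 knockout and 4.65 to 5.98 in wild type. Of the other markers, Ngp, Elane, Mpo and Cxcr2 stayed at or under 3.68 on the 11 arrays, and Ltf at 3.47 to 3.89. S100a9 lay near the floor, at 3.58 to 4.06 in the double knockout, 3.75 to 4.0 in the IRAK2 knockout and 3.63 to 4.15 in wild type. Of 7 mast cell and eosinophil markers 2 or 3 reached the floor, and their summed level was 7.98 to 8.33 in the double knockout, 6.93 to 7.59 in the IRAK2 knockout and 6.92 to 7.46 in wild type. Siglecf carried it, at 7.36 to 7.81 in the double knockout, 5.77 to 6.87 in the IRAK2 knockout and 5.76 to 6.78 in wild type. Cpa3 read 4.90 to 5.85 in the double knockout, 4.23 to 4.49 in the IRAK2 knockout and 3.92 to 4.29 in wild type. Kit read 3.68 to 4.34, 3.11 to 3.36 and 3.11 to 3.40 in the same order. Fcer1a read 3.45 to 3.61, 3.17 to 3.45 and 3.20 to 3.26, under the floor. Prg2, Epx and Mcpt4 stayed at or under 3.74 on the 11 arrays. The part of these cells in the genotype differences was not tested.

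Lower in the double knockout without having been raised at all times by MALP-2 were Thbs1, Plau and Cst3. Thbs1 read 8.15, 6.98 and 6.86 in the double knockout and differed by -1.44 from wild type (SE 0.16, adjusted p 3.24e-04) and by -1.64 from the IRAK2 knockout (SE 0.16, adjusted p 2.12e-04). Plau read 4.53, 5.01 and 3.97 in the double knockout and 5.56, 5.55 and 5.17 in the IRAK2 knockout, against 5.81, 5.83 and 5.02 in wild type. It differed from wild type by -1.05 (SE 0.15, adjusted p 9.1e-04). Cst3 read 11, 10.92 and 10.70 in the double knockout and 11.56, 11.57 and 11.32 in the IRAK2 knockout, against 11.67, 11.56 and 11.34 in wild type, a difference from wild type of -0.65 (SE 0.10, adjusted p 0.0015). Unstimulated, Cst3 read 11.77 in the IRAK2 knockout and 11.91 in wild type.

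Higher in the double knockout were Serpinb9, Mmp12, Timp3 and, on the probeset read, Adam10, whose probeset 1450105_at went the other way (-1.34 between the double knockout and wild type). Serpinb9 read 6.94, 7.94 and 7.38 in the double knockout and 5.77, 6.48 and 7.18 in the IRAK2 knockout, against 5.85, 5.78 and 6.29 in wild type, higher than wild type by 1.45 (SE 0.26, adjusted p 0.0024). Its 0 h readings were 6.12 in the IRAK2 knockout and 6.05 in wild type, and at 8 h the IRAK2 knockout came near the double knockout. Mmp12 read 12.38, 12.42 and 12.24 in the double knockout and 11.73, 11.75 and 11.59 in the IRAK2 knockout, against 11.63, 11.51 and 11.11 in wild type. It was higher by 0.93 than in wild type (SE 0.12, adjusted p 5.3e-04) and by 0.66 than in the IRAK2 knockout (SE 0.12, adjusted p 0.0029), and the stimulated readings of the double knockout did not overlap those of the others. At 0 h it read 11.97 in the IRAK2 knockout and 11.79 in wild type. Adam10 read 11.90, 11.94 and 11.74 in the double knockout and 11.32, 11.09 and 11.26 in the IRAK2 knockout, against 11.34, 10.82 and 10.82 in wild type, higher by 0.86 than in wild type (SE 0.14, adjusted p 0.0015). At 0 h Adam10 read 11.63 in the IRAK2 knockout and 11.70 in wild type.

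Timp3 was ordered the other way between the knockouts. It read 6.57, 6.70 and 6.45 in the double knockout and 5.42, 5.25 and 4.63 in the IRAK2 knockout, against 6.06, 6.08 and 5.58 in wild type. It was higher in the double knockout than in wild type by 0.67 (SE 0.14, adjusted p 0.0053, 0.054 without the 4 h arrays) and than in the IRAK2 knockout by 1.48 (SE 0.14, adjusted p 1.6e-04), and lower in the IRAK2 knockout than in wild type (-0.81, SE 0.14, adjusted p 0.044). That last call was the 1 made among members for the IRAK2 knockout against wild type (0.35% of all genes called lower and 0.415% higher, 0.765% in all), and it was lost when any 1 time was left out (adjusted p 0.11, 0.52 and 0.15 without 2, 4 and 8 h). Unstimulated, Timp3 already read 5.52 in the IRAK2 knockout against 6.69 in wild type, a difference of -1.18. Another Timp3 probeset above the floor, 1449334_at, differed by -0.05 between the IRAK2 knockout and wild type and by 0.29 between the double knockout and wild type.

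**Figure D4:**
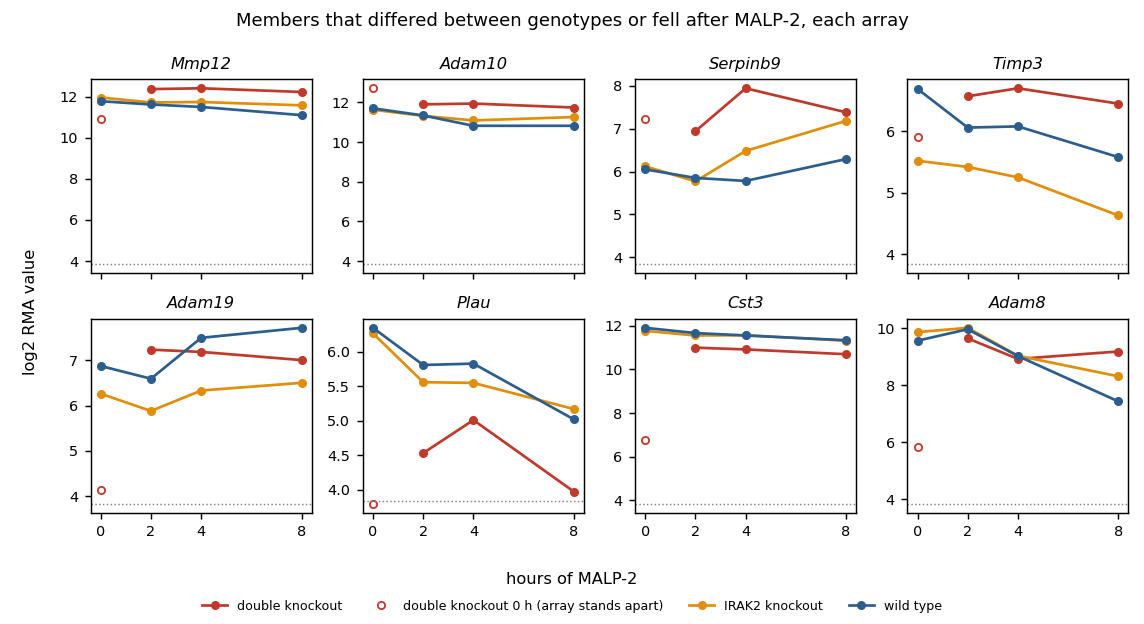
Log2 RMA values of 8 further members on every array, against hours of MALP-2, for the double knockout, the IRAK2 knockout and wild type; the dotted line is the floor of 3.83 and the open point is the double-knockout 0 h array. Mmp12 and the Adam10 probeset read lie higher in the stimulated double knockout (another Adam10 probeset, 1450105_at, differed by -1.34 from wild type). The Timp3 probeset read and Adam19, which was not called against wild type, lie lower in the IRAK2 knockout. Another Timp3 probeset, 1449334_at, differed by -0.05 between the IRAK2 knockout and wild type. Adam8 at 8 h read 9.18, 8.31 and 7.43 in the double knockout, the IRAK2 knockout and wild type.

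Adam19 and Mmp2 differed by -1.03 each between the IRAK2 knockout and wild type without passing (SE 0.22 and 0.21, adjusted p 0.091 and 0.084). Adam19, a sheddase of neuregulins, read 7.23, 7.18 and 7.0 in the double knockout and 5.88, 6.33 and 6.50 in the IRAK2 knockout, against 6.59, 7.49 and 7.71 in wild type. Its 0 h readings were 6.26 in the IRAK2 knockout and 6.87 in wild type. The double knockout was higher than the IRAK2 knockout by 0.90 (SE 0.22, adjusted p 0.012) and did not differ by a call from wild type (-0.13, SE 0.22). Mmp2 read 5.51, 5.56 and 6.20 in the double knockout and was likewise higher than in the IRAK2 knockout (0.66, SE 0.21, adjusted p 0.038). Serpinb6a was lower in the double knockout than in the IRAK2 knockout (-0.51, SE 0.12, adjusted p 0.0091) and not called against wild type (-0.06, SE 0.12). With only IRAK2-knockout and wild-type arrays in the fit, 6 of 32 members were called, Adam19, Lox, Mmp2, Timp1 and Timp3 lower and Serpinb6a higher, against 5.14% of all 10749 genes of that fit.

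Among the members called in no genotype contrast, Adam8 differed by 0.44 between the double knockout and wild type (SE 0.33, adjusted p 0.31). Its differences were -0.32, -0.10 and 1.75 at 2, 4 and 8 h, so that the sign rests on the 8 h arrays (-0.21 without them). Timp2 differed by 0.36 (SE 0.13, adjusted p 0.057). Mmp19 read 7.65, 7.53 and 8.50 in the double knockout and 8.26, 8.06 and 7.98 in the IRAK2 knockout, against 7.99, 7.77 and 7.66 in wild type, so that it was higher at 8 h than at 2 h in the double knockout only. Its change with time against wild type was 0.59 per doubling (SE 0.17, adjusted p 0.22), which missed the threshold. Cstb, cystatin B, stayed within 12.30 to 12.61 over the 11 arrays.

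The fibrillar collagen genes and Sparc, which macrophages are not known to make at high level, were read well above the floor. Col1a1 stood at 10.61, 10.72 and 10.85 in the double knockout and 10.78, 10.56 and 10.75 in the IRAK2 knockout, against 10.48, 10.62 and 10.61 in wild type, and Col3a1 at 7.86 to 8.53 on the 11 arrays. Their differences between the double knockout and wild type were 0.15 (SE 0.12) for Col1a1, 0.28 (SE 0.16) for Col3a1 and 0.08 (SE 0.12) for Sparc, none called. Of 11 fibroblast and mesothelial markers, 5 to 7 were at or above the floor on the stimulated arrays. Their summed level was 10.04 to 10.13 log2 in the double knockout, 9.71 to 10.07 in the IRAK2 knockout and 9.95 to 10.31 in wild type. Col1a2, itself a collagen gene, carried it. Col1a2 read 9.32 to 9.59 in the double knockout, 8.95 to 9.34 in the IRAK2 knockout and 9.15 to 9.51 in wild type. In the same order Pdgfra read 7.50 to 7.95, 7.48 to 7.84 and 7.83 to 8.27, and Wt1 5.39 to 5.71, 5.07 to 5.34 and 5.29 to 5.64. Pdgfrb read 4.16 to 4.48, 4.55 to 5.43 and 5.59 to 5.85, and Dcn 4.73 to 5.11, 4.99 to 5.59 and 5.03 to 5.80. Gpm6a was higher in the double knockout, at 3.94 to 4.75, against 3.48 to 3.76 in the IRAK2 knockout and 3.52 to 3.6 in wild type. Upk3b and Dpt lay near the floor. In the same order Upk3b read 3.49 to 4.48, 3.64 to 4.02 and 3.31 to 3.56, and Dpt 3.33 to 3.55, 3.61 to 3.9 and 3.28 to 3.5. Lum, Msln and Krt19 stayed at or under 3.65 on every one of the 12 arrays. The part of such cells in the collagen readings was not tested.

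Different probesets of a member did not always give the same genotype difference. Of the 33 members 21 had more than 1 probeset. For Adam10, the probeset read gave 0.86 between the stimulated double knockout and wild type, whereas 1450105_at gave -1.34 (5.42, 4.79 and 5.68 in the double knockout, 7.04, 6.43 and 6.43 in wild type), so the direction of Adam10 depends on the probeset. For Fn1, 1437218_at gave -1.77 and a profile of its own, with 6.49, 4.88 and 4.94 at 2, 4 and 8 h in the double knockout and 7.76, 5.87 and 5.48 in the IRAK2 knockout, against 8.59, 6.84 and 6.18 in wild type. For Cstb, 1422507_at gave -0.89 where the probeset read gave 0.12. For Timp2, where the probeset read gave 0.36, 1454677_at gave 0.87, 1433662_s_at -0.17 and 1450040_at -0.27. For Adam17, read at 0.07, 1421859_at gave -0.31 and 1421857_at -0.53, and for Sparc, read at 0.08, 1416589_at gave -0.56. Other probesets above the floor went the same way for Lox (-2.66), Mmp14 (-1.79 and -2.66), Serpinb9 (1.25) and Timp3 (0.31 and 0.29). Timp1, Mmp12 and Cst3 have 1 probeset each. The double-knockout arrays also have the weaker 5′ signal given above, and its part in these disagreements was not tested. For the response to MALP-2 at 8 h, the probesets 1448228_at of Lox, 1448291_at of Mmp9 and 1440920_at of Mmp14 gave rises of 3.77, 1.54 and 2.74 log2. For Fn1, 1437218_at gave 2.17, 0.35 and -0.18 log2 at 2, 4 and 8 h. That Fn1 was higher at all 3 times thus depends on the probeset.

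**Figure D5:**
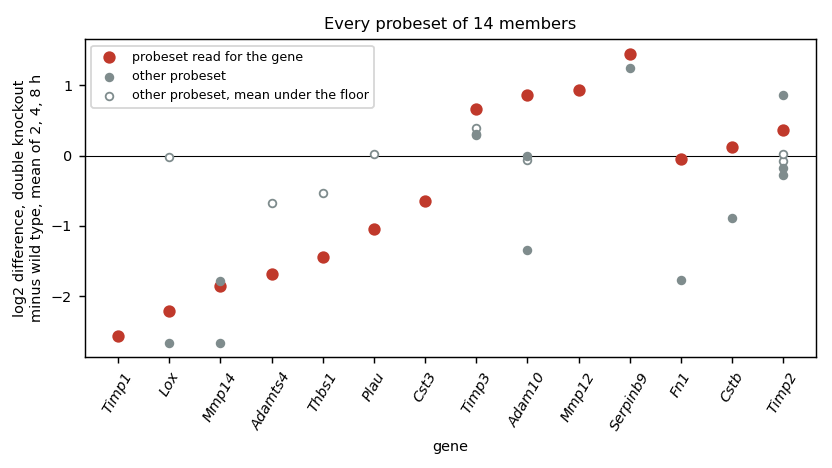
Log2 difference between the double knockout and wild type, as the mean of 2, 4 and 8 h, for every probeset of 14 members; large red points are the probesets read, and open points have a mean under the floor of 3.83. The probesets of Adam10 lie on both sides of 0 (0.86 and -1.34 at the ends), while those of Mmp14 lie between -2.66 and -1.79.

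Other genes of the same roles, listed by general knowledge, were mixed as well. Of 10 tested further metalloproteinases and inhibitors, 2 were called higher (Adam12 and Reck) and 1 lower (Adamts9) in the double knockout against wild type. Of 17 further serpins, cystatins and plasminogen genes, 5 were higher and 4 lower, and of 29 further matrix genes, 7 were higher and 3 lower. Their medians were -0.11, 0.19 and 0.16 log2, against 0.07 over all tested genes, of which 23.7% were called higher and 17.3% lower. Of the called genes of these lists, Adam12, Reck and Adamts9 were named after their values were seen. Serpinb1a, which blocks neutrophil proteases, read 7.37, 7.37 and 6.46 in the double knockout and 4.75, 5.29 and 4.39 in the IRAK2 knockout, against 4.01, 4.56 and 4.75 in wild type, higher than wild type by 2.63 (SE 0.27, adjusted p 2.1e-04). Serpinb2, plasminogen activator inhibitor 2, read 6.78, 6.02 and 5.18 in the double knockout and 7.85, 7.76 and 6.78 in the IRAK2 knockout, against 8.17, 7.94 and 7.85 in wild type, lower than in wild type (-1.99, SE 0.22, adjusted p 3.1e-04).

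Vcan, the proteoglycan versican, read 6.03, 5.77 and 4.64 in the double knockout and 7.16, 6.72 and 5.08 in the IRAK2 knockout, against 7.99, 7.98 and 6.38 in wild type. It was lower than in wild type in the double knockout (-1.97, SE 0.15, adjusted p 6.1e-05) and in the IRAK2 knockout (-1.13, SE 0.15, adjusted p 0.018). Against the IRAK2 knockout, the double knockout had less of the cystatin gene Stfa3 (-1.74, SE 0.25, adjusted p 0.0011) and of Slpi, a leukocyte elastase inhibitor (-1.61, SE 0.25, adjusted p 0.0014). Procr, the endothelial protein C receptor, was higher in the IRAK2 knockout than in wild type by 1.04 (SE 0.16, adjusted p 0.033). In that contrast Procr and Vcan were the 2 calls among these lists, of 10, 17 and 29 tested genes, against 0.765% of all tested genes.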

How the data were processed

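Transcripts of mouse macrophages were measured on 12 Affymetrix arrays, 1 per genotype and time. The deposited table holds log2 values of 45101 probesets, made by the authors with RMA, per the submitters' processing notes (version not given in the sources used here). RMA equalises the distributions of probe intensities between arrays, so differences are relative to the whole array. The probeset values need not be equally distributed. Their medians were 3.81 to 3.86 on 11 arrays and 4.08 on the double-knockout 0 h array. Symbols came from GEO's platform annotation (34958 probesets with 1 symbol, 932 with several, 9211 with none) and were updated by gene identifier for 34754. The floor was the median value over 11 arrays. Tests used limma 3.58.1 in R 4.3.3 with Benjamini-Hochberg adjustment over every gene whose mean reached the floor. The genotype fit had 4 residual degrees of freedom, the response fit 3 and the slope fit 2. In simulated data the genotype fit recovered 84 of 100 genes shifted by 1 log2 in the double knockout and 99 of 100 shifted by 2, with 10 false calls among 10855 genes. The response fit at 8 h recovered 90 and 100 of 100, with 11 false calls among 10801. The slope fit for the double knockout recovered 82 and 99 of 100, with 12 false calls among 10855. The simulated noise was drawn independently for each gene and array. Differences shared by the arrays of a genotype, such as the weaker 5′ signal, were not simulated. These false calls therefore do not measure the error rate of the real data. With 1 array per group, the number of arrays limits the precision. Members, lists and tests were chosen with earlier results of these data known. The rule for named genes takes all 36 members, giving values on every array for those called in a genotype contrast or at all 3 times, and the 3 largest calls among other genes of these roles per genotype contrast. Alternatives changed the filter, the probesets, the centring and the arrays.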

Additional observations from a re-analysis of the deposited data

Results flagged for a closer look

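Lox was singled out because its difference between genotypes changed with time by a test of the change itself. The gap between the double knockout and wild type moved by -1.59 log2 per doubling of time (limma adjusted p 0.015, 0.0060 to 0.015 over 4 alternatives), and was negative at 3 of 3 stimulated times.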

How the results depend on the processing

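The response counts kept within 13 to 14, 17 and 20 to 21 called members at 2, 4 and 8 h over their 4 alternatives, and the counts past 2-fold did not change. With all 12 arrays in the genotype fit, members called numbered 7 against wild type and 7 against the IRAK2 knockout for the double knockout (11 and 13 otherwise), and 0 for the IRAK2 knockout against wild type (1 otherwise). The double-knockout 0 h array enters that setting. Leaving out 1 time gave 10 to 12 calls for the double knockout against wild type, 5 to 14 against the IRAK2 knockout (5 without 4 h) and 0 to 0 for the IRAK2 knockout against wild type. For the last contrast, only the 2 genotypes in the fit gave 6 calls, and leaving out probesets ending in _x_at or _s_at gave 0. The causes were not tested. Timp1, Mmp14, Thbs1 and Plau were called against both genotypes, and Lox, Adam10 and Serpinb9 against wild type, in all 10 alternatives, as was Timp3 against the IRAK2 knockout. With all 12 arrays Adamts4, Cst3, Mmp12 and Timp3 lost their call against wild type. None of the called members changed sign under these alternatives, none of which takes the Adam10 probeset 1450105_at (-1.34 against 0.86 for the one read). No paired analysis was possible because each group holds 1 array and so no replicate number to match, though time is a factor in the genotype fit. Readings near the floor of 3.83 (Mmp3, Mmp10, Serping1 and Adamts4 at 0 h) limit what can be seen.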
